A study of Mus musculus with 4 samples.

Results

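The axon guidance ligands and receptors are the cell surface and secreted proteins by which a growing axon is attracted or repelled. Their probe sets were taken from the array by gene symbol: all with exactly 1 annotated symbol beginning Epha, Ephb, Efna, Efnb, Sema, Plxn, Robo, Slit, Ntn or Unc5, and Nrp1, Nrp2 or Dcc, leaving out the Slitrk genes. The rule found 58 of 12422 probe sets, for 45 of 8251 named genes. One of the 45, Unc50, matched by its letters alone: it is a Golgi protein and no netrin receptor, and it was kept as the rule gives it. No Slit gene and no Nrp2, Ephb1 or Ephb2 was among the members, and these were not analysed here.

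RNA came from area CA1 of the hippocampus of young male C57BL/6J mice, an inbred strain with no engineered allele in the labels. All 4 samples were controls that an experimenter had handled and not otherwise treated, with 1 sample each taken 1, 2, 4 and 6 hours after other mice had received a last shock. Samples of shocked mice were not analysed here. Whether RNA of 1 mouse or of several went into a sample is not given in the labels, and times, animals, dissections and arrays cannot be told apart. P-values therefore measure only the spread between these samples, which may be technical, and the number of arrays limits their precision.

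Guidance proteins work as ligand and receptor families. Ephrins, which are held on the membrane by a lipid anchor (ephrin-A) or a transmembrane segment (ephrin-B), bind Eph receptor tyrosine kinases on the neighbouring cell, and both sides can signal. Semaphorins act through plexins, with neuropilins as co-receptors for most secreted class 3 members, netrins act through Dcc and the Unc5 receptors, and slits through robos. In the adult hippocampus several of these proteins stay in place and are known for roles at dendritic spines and synapses.

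Values are deposited signals on a linear scale, in the order of the 1-, 2-, 4- and 6-hour samples, unless they are called log2 differences. A log2 difference sets 1 sample against the mean of the other 3 after quantile normalization, with the SD over those 3. After quantile normalization, signals at or under 35.1, the 20th percentile, were set to that floor. They are thus upper bounds and say nothing on whether a transcript was present. Testing was limited to probe sets whose mean log2 value, after normalization and flooring, equalled a signal of 105 or more. This left 40 of the 58 members (33 genes), all 40 above the floor in every sample, and 18 untested members, of which 4 were at the floor in all 4 samples. Signals of different probe sets were not set against each other. In tissue RNA, fewer cells of a type and less RNA per cell cannot be told apart.

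Quality and makeup of the samples were read first. The 3' over 5' signal of the Gapdh control probe sets lay between 1.18 and 1.37 at 2, 4 and 6 hours but reached 4.52 at 1 hour; that of beta-actin lay between 1.76 and 2.00 and reached 2.34. CA1 identity rested on 4 of 8 listed markers, the others having no probe set named here, and all 4 were above the floor throughout, with Wfs1 at 1964 to 2797. Summed signals were 5655 to 7242 for these CA1 markers and 2501 to 2796 for 8 dentate granule markers. They were 37103 to 44028 for 11 interneuron markers, led by Cck (13808 to 17351) and Sst (8664 to 11953). Of the dentate markers Prox1 was not tested, at 25.1 to 59.8. The 4 tested were above the floor throughout: Calb1 at 1545 to 1755, Lct at 282 to 405, Dsp at 175 to 330 and Neurod1 at 106 to 178. The 1-hour sample stood apart in 2 sums, with 1 gene giving most of each gap. The 7 choroid plexus and ependyma markers summed to 3726 there and 1413 to 1729 in the others, and without Ttr (2246 there, 143 to 353 in the others) to 1480 and 1235 to 1376. The 5 CA3 and CA2 markers summed to 7687 there and 10697 to 11098 in the others, and without Nnat (891 there, 4524 to 5005 in the others) to 6796 and 6093 to 6391. Of these Pcp4 was at the floor in all 4 samples, while Rgs14 had 5017 to 5790, Bok 645 to 845 and Pou3f3 143 to 329. The 11 generic neuron markers summed to 54276 to 59020, but 7 of the 11 were lower at 1 hour, with a median log2 difference of -0.54. Of these Tubb3 passed (-0.54, limma adjusted p = 0.040). Syt1 (-0.89), Syp (-0.70), Eno2 (-0.63) and Nefl (-0.58) did not, and Map2 was at the floor only at 1 hour. The 4 that were not lower were Nefm (0.59), Thy1 (0.18), Nefh (0.10) and Snap25 (0.0009). Sums over the others were 19840 to 23187 for astrocytes (8 markers), 22471 to 27838 for oligodendrocytes (10, with Cnp at the floor in all 4), 8883 to 10037 for microglia (10), 2460 to 3644 for endothelium and pericytes (12), 10884 to 19046 for meninges and fibroblasts (8) and 1699 to 2313 for thalamus (7, of which 1 was at the floor in all 4). The part of any of these in the results on the members was not tested.

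**Figure D1:**
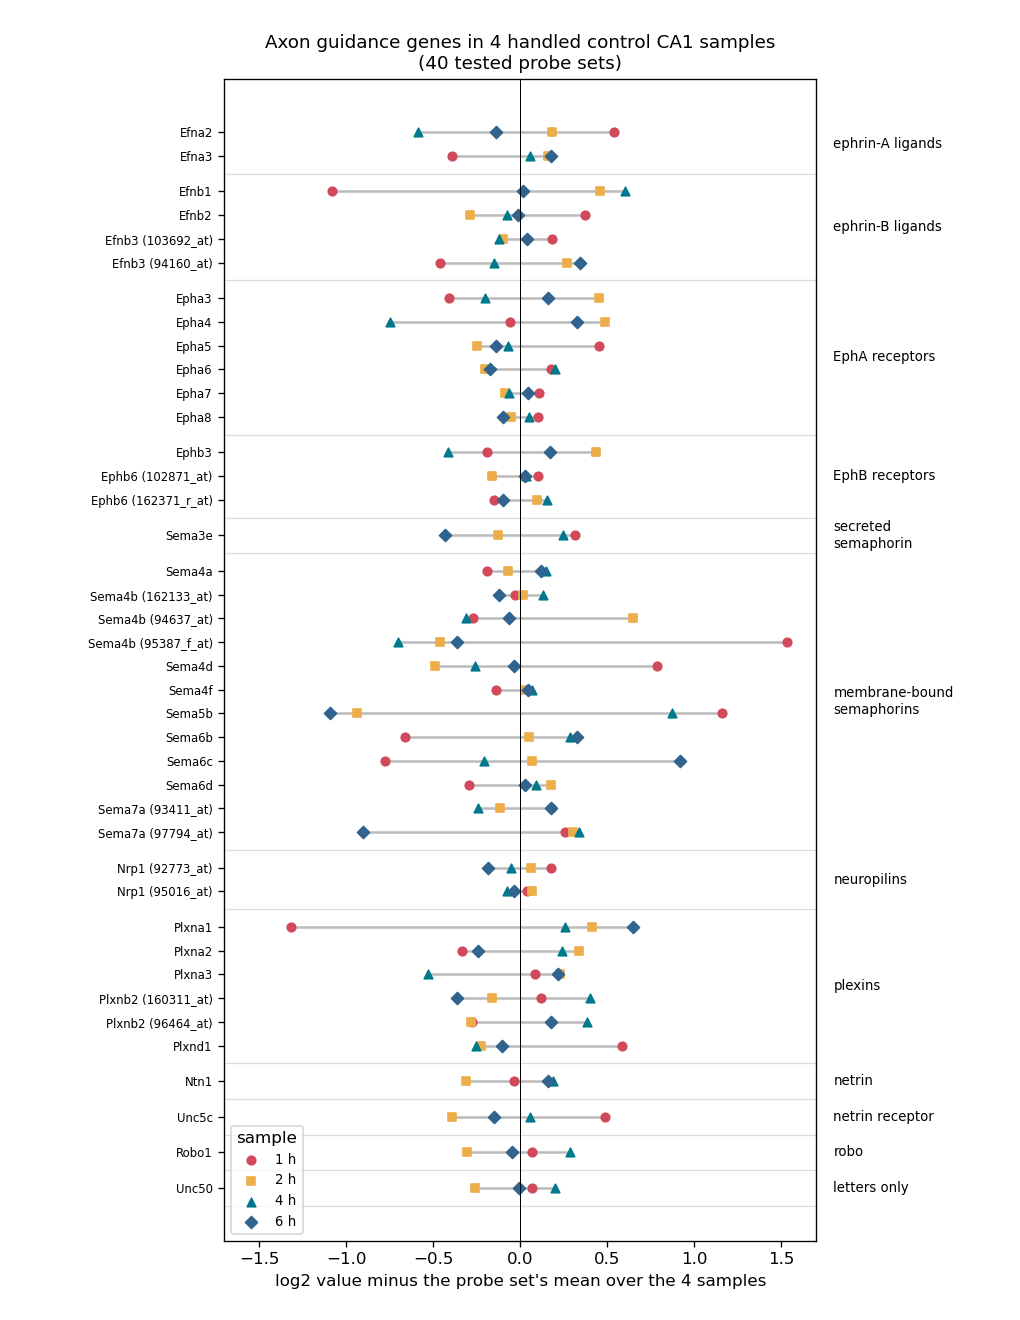
The 40 tested probe sets, grouped by role, each with its log2 value in the 4 samples relative to its own mean over them (x axis, log2 units; 1 point per sample, grey line from lowest to highest). Most lie within 1 log2 unit, and the longest lines are those of Sema5b, 1 Sema4b probe set and Plxna1.

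Guidance genes had a somewhat wider range over the control samples than the array as a whole, a difference that was not tested. The median range of the 40 tested members, from the lowest to the highest sample, was 0.69 on the log2 scale, against 0.56 over all 7453 tested probe sets. Of the 40, 15 had a range under 0.5 and 9 (22.5%) a range of 2-fold or more, against a background of 17.9% of all tested probe sets. The 1-hour sample was the highest or lowest value in 7 of these 9, for which no background share was computed. It was so in 26 of all 40 (65%, background 64.2%). Without that sample 4 members had a 2-fold range (10%, background 9.06%). The last 2 shares were near those of the background. The ligands gave 7 of the 9, from 20 tested probe sets (35%), and the receptors 2, from 19 (10.5%), and neither share was tested against the other or the background.

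**Figure D2:**
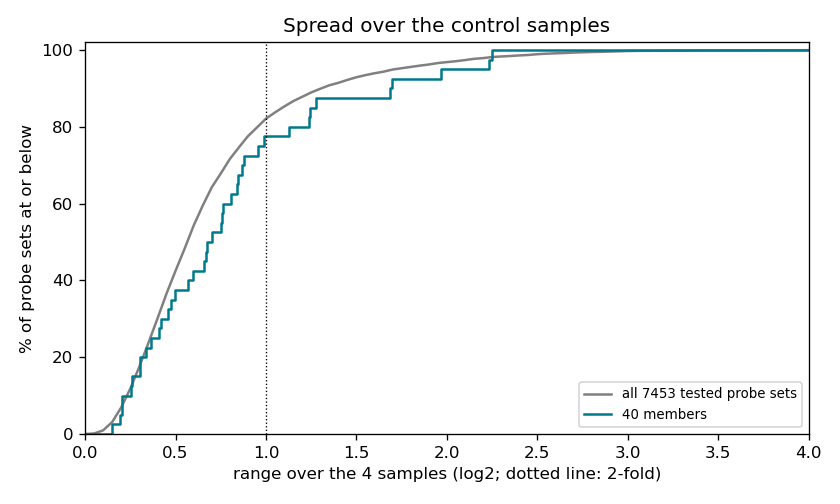
Share of probe sets (y axis, %) whose range over the 4 samples (x axis, log2 units) was at or below a given size, for the 40 tested members (step line) and all 7453 tested probe sets (smooth line). At the dotted line, 2-fold, 22.5% of the members and 17.9% of all tested probe sets lay above.

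Among the ephrin-A ligands, which bind mainly EphA receptors, Efna3 and Efna2 were tested and Efna1, Efna4 and Efna5 were not. Efna3 had signals of 1385, 2008, 1927 and 2089. The 1-hour sample was the lowest and the other 3 lay close together, with a log2 difference of -0.52 (SD 0.07, limma adjusted p = 0.15). Efna2 went the other way at 1 hour, with 219, 179, 99.6 and 139, highest at 1 hour and lowest at 4 hours, a range of 1.13 on the log2 scale. Efna4 was at the floor in all 4 samples (14.8 to 24.5). Efna5, a ligand known for topographic mapping, was at the floor in 3 (6.5 to 10.9) and had 59.0 at 6 hours. Efna1 had 17.9, 12.9, 35.7 and 83.1, also highest at 6 hours.

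Efna1, Efna3 and Efna4 lie next to each other on chromosome 3, on the same strand, with no other protein-coding gene between them in the reference gene table. The probe set of Efna3 was tested and those of Efna1 and Efna4 were not, which does not rank the levels of the genes. The 200 bases before the start of each, the furthest upstream start where there were several, are shown because the 3 genes are neighbours of 1 family. Sequences are those of RefSeq on GRCm38.p6, 5′ to 3′ on the gene's strand, with matches to 5 motifs in capitals: the GC box (GGGCGG), the TATA box (TATAAA), the CCAAT box (CCAAT), the E-box (CACGTG) and the cAMP response element (TGACGTCA), each on both strands. The windows are chr3:89280952-89281151 for Efna1, chr3:89322940-89323139 for Efna3 and chr3:89338029-89338228 for Efna4, all on the minus strand.
Efna1: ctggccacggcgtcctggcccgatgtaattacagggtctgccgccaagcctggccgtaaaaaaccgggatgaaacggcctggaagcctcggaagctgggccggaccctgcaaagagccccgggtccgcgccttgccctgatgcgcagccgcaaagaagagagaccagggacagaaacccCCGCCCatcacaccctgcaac
Efna3: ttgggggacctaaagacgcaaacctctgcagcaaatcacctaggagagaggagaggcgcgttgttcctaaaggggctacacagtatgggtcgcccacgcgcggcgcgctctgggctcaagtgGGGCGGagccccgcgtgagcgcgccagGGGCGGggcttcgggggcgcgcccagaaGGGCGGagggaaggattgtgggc
Efna4: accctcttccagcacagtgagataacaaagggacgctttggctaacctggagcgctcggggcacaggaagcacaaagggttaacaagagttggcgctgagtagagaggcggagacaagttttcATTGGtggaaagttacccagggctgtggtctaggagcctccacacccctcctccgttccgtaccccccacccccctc
The Efna3 window held 3 GC boxes, that of Efna1 1 and that of Efna4 none, but 1 CCAAT box. CpG dinucleotides numbered 19, 15 and 7 in the same order. A match of letters is a description and no evidence that a factor binds.

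Promoters in the same table matched 38 of the 45 genes. A GC box stood in 29 of the 38 windows (76.3%) and in 31.3% of the windows of all 27025 genes there, many of them non-coding. A TATA box stood in 1 (2.6%, against 10.6%), a CCAAT box in 10 (26.3%, against 30.1%), an E-box in 2 (5.3%, against 5.27%) and the cAMP response element in 1, that of Epha2 (2.6%, against 1.53%). The median GC content was 66.0% over the members and 53.0% over all genes.

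The ephrin-B ligands signal both ways, as ligands and as receptors. Efnb1 had 93.8, 278, 299 and 203. The 1-hour sample lay below the other 3, with a log2 difference of -1.44 (SD 0.30, SE 0.37), which did not pass (limma adjusted p = 0.11). Efnb2, an ephrin of arteries and of neurons, had 736, 481, 545 and 582, with the 1-hour sample the highest. Efnb3, which carries signals at spines and in midline crossing, was read by a pair of probe sets that differed at 1 hour: 1 had 2547, 2068, 2095 and 2311 and the other 421, 719, 532 and 763. The first was highest and the second lowest in the 1-hour sample, with log2 differences of 0.24 (SD 0.09) and -0.62 (SD 0.27). Neither passed the test. The window before the start of Efnb1 (chrX:99135861-99136060, plus strand), shown for the ligand with the widest range of its family, held 1 CCAAT box and no GC box.
Efnb1: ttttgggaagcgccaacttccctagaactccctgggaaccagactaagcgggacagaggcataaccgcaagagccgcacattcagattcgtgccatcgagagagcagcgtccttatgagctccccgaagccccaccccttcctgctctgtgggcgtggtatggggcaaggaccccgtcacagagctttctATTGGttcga

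EphA receptors were measured by 10 probe sets for 7 genes, of which 6 were tested, 1 per gene. Epha4, a receptor that binds both kinds of ephrin and restrains spines of hippocampal neurons, had 366, 556, 230 and 494. The 4-hour sample was the lowest, 2-fold below the mean of the others (their SD 0.28 on the log2 scale, limma adjusted p = 1.00), and the range was 1.24. Epha5 had 1262, 792, 883 and 847, highest at 1 hour (0.61, SD 0.09, limma adjusted p = 0.16). Epha3 had 79.8, 151, 89.8 and 118, with no order in time. Epha7, Epha8 and Epha6 varied little, with ranges of 0.19, 0.20 and 0.41 on the log2 scale. Epha7 had 876, 786, 784 and 859, and Epha8 308, 288, 300 and 275. Epha6 had 477, 388, 502 and 391, with the 1- and 4-hour samples above the 2- and 6-hour samples. Epha2, a receptor best known from epithelia, was at the floor in 3 samples and had 39.8 at 2 hours.

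EphB receptors, which bind ephrin-B ligands, came down to Ephb3 and Ephb6. Ephb3 had 163, 262, 138 and 215, a range of 0.85. Ephb6, which lacks kinase activity, had 1213, 1036, 1177 and 1178 on 1 probe set, a range of 0.26. Its other probe set, marked by its suffix for possible cross-hybridization, had 335, 412, 420 and 360, a range of 0.31. In the 1-hour sample the first was the highest of the 4 and the second the lowest.

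Secreted class 3 semaphorins mostly missed the filter on low values. Only Sema3e, which binds plexin D1 without a neuropilin, was tested of 5 genes and 6 probe sets. It had 680, 517, 657 and 418, lowest at 6 hours (log2 difference -0.58, SD 0.24). Sema3a, the classic growth cone repellent, had 12.1 at 1 hour, at the floor, and 74.0, 42.2 and 101 in the others. Both Sema3b probe sets were at the floor in every sample (4.1 to 25.5). Sema3c was above it only at 4 hours (47.8) and Sema3f only at 1 hour (37.1).

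Membrane-bound semaphorins gave the 2 widest ranges of the 40 tested members. Of 15 probe sets for 11 genes, 12 were tested (9 genes), and 5 of the 12 (41.7%, background 17.9%) had a range of 2-fold or more. Suffixed probe sets of Sema4b and Sema6c were among the 5, and the share was not tested against the background. Sema5b had 242, 59.7, 201 and 50.9. It passed the filter on low values through its 1- and 4-hour signals. Those at 2 and 6 hours lay under the level set for the mean. The 1- and 4-hour samples lay together, well above the 2- and 6-hour samples, without an order in time, and the range of 2.25 was the largest of the 40. It was 2-fold or more from the mean of the other 3 in each of the 4 samples, by 1.54, -1.25, 1.16 and -1.45, and no limma fit called it (adjusted p = 0.40 at 1 hour and 1.00 in the other samples). The 12 marker sums were looked through for this sample order of Sema5b. The 1- and 4-hour samples lay above the 2- and 6-hour samples in 4, the reverse held in 2, and 6 had neither order. The sums of meninges and fibroblasts were 16285, 13235, 19046 and 10884, led by Ptgds with 8209, 6231, 11824 and 4732. Other tested markers of that list went both ways. Dcn and Igf2 had the same order, but Col1a1 (411, 324, 130 and 323) and Col1a2 were lowest at 4 hours and Slc6a13 was highest at 2 hours. The sums of CA1, which share Dcn with the meninges list, were 6868, 5912, 7242 and 5655. The interneuron and choroid plexus sums had the same order, and the dentate granule and generic neuron sums the reverse. Their part in the Sema5b values was not tested.

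Sema4b, a semaphorin of synapses and glia, was read by 3 probe sets that disagreed. The one whose suffix marks a sequence family had 697 at 1 hour and 184, 147 and 192 in the others, 4.12-fold above their mean (log2 difference 2.04, SD 0.17, SE 0.30, limma adjusted p = 0.018). The other 2 had 105, 203, 99.2 and 120, highest at 2 hours, and 301, 326, 341 and 293, nearly level. Their log2 differences at 1 hour were -0.36 (SD 0.50, limma adjusted p = 0.78) and -0.04 (SD 0.13, limma adjusted p = 0.96). The rise at 1 hour was thus seen by 1 of 3 probe sets of the gene. That sample had the Gapdh ratio of 4.52. The part of this ratio, or of the sequence family marked by the suffix, in the rise was not tested. The windows before the starts of Sema4b (chr7:80186670-80186869, plus strand) and Sema5b (chr16:35541162-35541361, plus strand) are shown for the pair with the widest ranges.
Sema4b: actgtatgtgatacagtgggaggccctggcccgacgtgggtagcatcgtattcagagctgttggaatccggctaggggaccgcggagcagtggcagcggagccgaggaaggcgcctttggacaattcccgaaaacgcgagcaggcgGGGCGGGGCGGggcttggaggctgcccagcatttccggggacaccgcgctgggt
Sema5b: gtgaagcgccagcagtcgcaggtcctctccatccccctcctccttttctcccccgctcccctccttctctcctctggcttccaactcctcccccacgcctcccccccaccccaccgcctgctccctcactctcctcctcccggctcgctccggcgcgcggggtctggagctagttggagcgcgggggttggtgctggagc
That of Sema4b held 2 GC boxes, which share 1 base. That of Sema5b held none of the 5 motifs, with a GC content of 70.0%.

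The other membrane-bound semaphorins moved in both directions. Sema4d, which acts through B plexins and is known from oligodendrocytes and immune cells, had 560, 243, 278 and 327. It was highest at 1 hour (log2 difference 1.05, SD 0.23). The summed oligodendrocyte markers were 24752 there and 22471 to 27838 in the others. Single markers went both ways at 1 hour, such as Mag (-1.27) and Mog (0.52). Their part in the Sema4d values was not tested. Sema6b had 268, 459, 525 and 551, lowest at 1 hour (-0.88, SD 0.15, limma adjusted p = 0.12). Sema6c, on a probe set marked by its suffix, had 130, 239, 191 and 428, with the 1-hour sample lowest (-1.04, SD 0.59) and the 6-hour sample highest (1.23, SD 0.43). Sema7a, a lipid-anchored semaphorin, had 133, 141, 136 and 58.4 on 1 probe set and 948, 797, 717 and 967 on the other. The 6-hour sample was thus the lowest on the first (-1.20, SD 0.04, limma adjusted p = 1.00) and the highest on the second. Sema4f had 1005, 1159, 1185 and 1170, a range of 0.21. Sema6d had 170, 245, 225 and 217, and the tested Sema4a probe set 526, 595, 682 and 680, both lowest at 1 hour. In this class 3 probe sets were not tested: Sema6a had 20.9, 60.9, 176 and 39.8, Sema5a 17.4, 65.1, 93.1 and 99.3, and the second Sema4a probe set 41.2, 98.4, 225 and 79.4. In all 3 the 1-hour sample was the lowest.

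The receptors of semaphorins were above the floor in every sample, without exception among the 8 probe sets measured. Nrp1, the co-receptor of Sema3a and of vascular endothelial growth factor, was steady: 1 probe set had 1795, 1786, 1641 and 1701, a range of 0.15, the narrowest of the 40 tested, and the other 387, 375, 335 and 311, a range of 0.36. Plxna1, a plexin that signals for Nrp1-bound semaphorins, had 115, 388, 336 and 452. The 1-hour sample stood apart below the other 3, 3.37-fold under their mean (log2 difference -1.75, SD 0.20, SE 0.29, limma adjusted p = 0.024). That sample had the Gapdh ratio of 4.52. Of all tested probe sets 4.56% lay 2-fold or more lower there and 1.78% higher. The part of this ratio in the Plxna1 values was not tested. Other A plexins did not share the size of the Plxna1 difference. Plxna2 had 413, 680, 629 and 454, low at 1 and 6 hours, and Plxna3 441, 511, 294 and 506, low at 4 hours. Plxnd1, the receptor of Sema3e, had 745, 438, 419 and 476, highest at 1 hour (0.78, SD 0.08, limma adjusted p = 0.13). Plxnb2 had 478, 413, 597 and 358 on 1 probe set and 270, 283, 437 and 383 on the other. Both were highest at 4 hours.

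Netrin and slit pathways were thinly covered. Ntn1, the secreted netrin, had 285, 247, 336 and 336 on 1 probe set, and was at the floor in all 4 samples on the other. Unc5c, a receptor for repulsion by netrin, had 1124, 630, 851 and 752, highest at 1 hour (log2 difference 0.65, SD 0.23, limma adjusted p = 0.22). Dcc, the receptor for attraction, was not tested, with 30.6, 38.6, 24.8 and 87.3. Robo1, a slit receptor, had 184, 150, 219 and 174, a range of 0.60. Robo3 was at the floor at 1 and 2 hours and had 77.8 and 101 at 4 and 6 hours. Unc50, the member by letters alone, had 2399, 1873, 2688 and 2281.

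**Figure D3:**
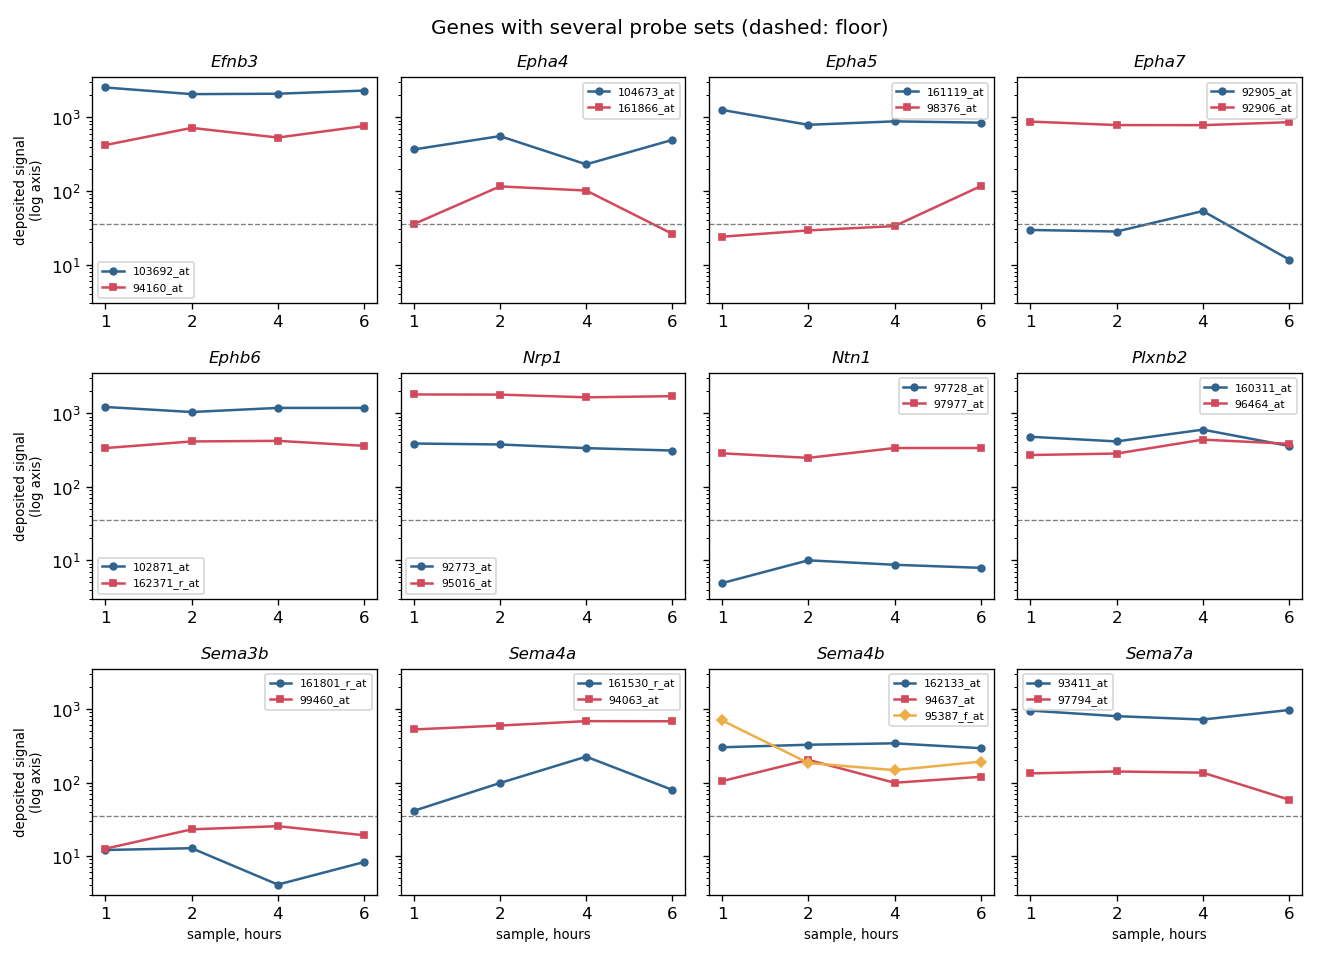
Deposited signal (y axis, log scale) in the 4 samples (x axis, hours) for the 12 genes with several probe sets, 1 line per probe set, with the floor of 35.1 dashed. The floor was applied after quantile normalization, so the dashed line is only approximate for deposited signals. The Sema4b probe set marked f is highest at 1 hour and the other 2 are not. The heights of different lines do not compare, only their courses.

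More than 1 probe set was present for 12 genes, and these often read the samples differently. In 6 genes 2 or more probe sets were tested, and in none of these 6 did the probe sets share both their highest and their lowest sample. In 4 of them, Efnb3, Ephb6, Plxnb2 and Sema4b, the signs at 1 hour were opposite. The largest gap between the log2 differences of 2 probe sets in a sample was 2.40 for Sema4b at 1 hour, 1.44 for Sema7a at 6 hours, 0.86 for Efnb3 at 1 hour and 0.72 for Plxnb2 at 6 hours, and it was 0.34 for Ephb6 and 0.20 for Nrp1. In 5 more genes 1 probe set was tested and the other was not. The untested probe set of Epha5 had 23.9, 29.1, 33.3 and 116, that of Epha7 29.5, 28.1, 53.3 and 11.7, and that of Epha4 35.4, 115, 101 and 26.1. The Epha4 probe sets thus parted at 4 hours, where the tested one was at its lowest and the untested one near its highest. Which part or isoform of a transcript a probe set reads was not used here.

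Each sample was then set against the other 3 in a limma fit over all 7453 tested probe sets. The single sample gives no spread of its own. That of the 3 is drawn by limma toward the usual spread of tested probe sets of like intensity. An SE can thus be larger than the SD of the 3, as for 1 Sema7a probe set at 6 hours (SD 0.04, SE 0.51). In the 1-hour sample 2 of 40 members had an adjusted p under 0.05, or 5%, against 2.35% of all tested probe sets. They were the Sema4b probe set above, which was higher (background 0.242% higher), and Plxna1, which was lower (background 2.11% lower). At an unadjusted p under 0.05 there were 10 (25%, background 15.8%). Both calls were lost with the floor at the 40th percentile (adjusted p = 0.071 for Sema4b and 0.090 for Plxna1), where only 0.0403% of all tested probe sets were called, and with no filter on low values (0.11 and 0.14). That of Plxna1 was also lost without the 2-hour sample (0.066) or the 6-hour sample (0.065). In the 2-, 4- and 6-hour samples 0 members were called by limma, as 0 of all tested probe sets were, with 0, 2 and 1 at an unadjusted p under 0.05 (0%, 5% and 2.5%, background 2.64%, 2.76% and 2.27%).

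By size alone, 6 of 40 members lay 2-fold or more from the other 3 in the 1-hour sample, or 15%, against 6.35% of all tested probe sets. Higher were Sema4b (1 of 3 probe sets), Sema5b and Sema4d (7.5%, background 1.78%), and lower were Plxna1, Efnb1 and Sema6c (7.5%, background 4.56%). The median log2 difference of the 40 was 0.09, against 0.05 over all tested probe sets, with 22 higher and 18 lower. In the 2-hour sample only Sema5b lay that far off, below (2.5%, background 1.72%), and 0 members lay above (background 1.27%). In the 4-hour sample Sema5b lay above (2.5%, background 1.07%) and Epha4 below (2.5%, background 1.93%). In the 6-hour sample Sema6c lay above (2.5%, background 1.49%), and Sema5b and 1 Sema7a probe set below (5%, background 1.61%). With 40 members, 1 probe set is 2.5%. Sema5b, which passed the filter on low values through its 1- and 4-hour signals, is counted in the member shares of all 4 samples.

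**Figure D4:**
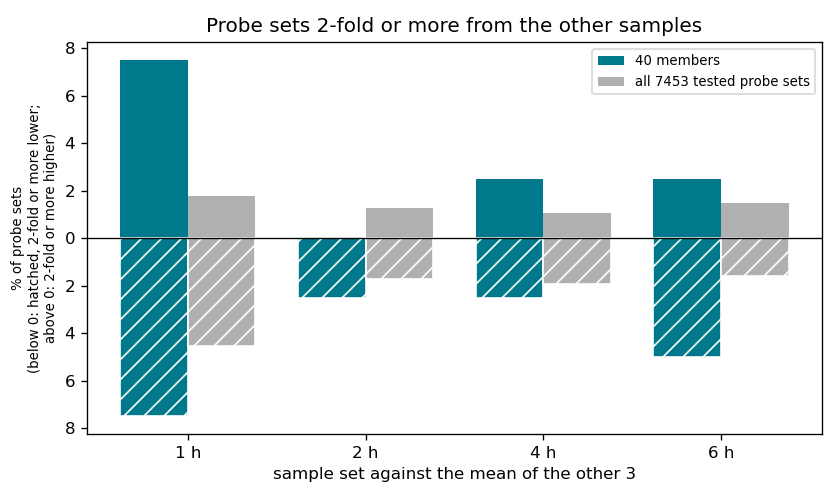
Share of probe sets (y axis, %) that lay 2-fold or more above (upward bars) or below (downward, hatched) the mean of the other 3 samples, for each sample (x axis), in the 40 tested members and in all 7453 tested probe sets. The 1-hour bars are the longest, 7.5% each way for the members against 1.78% and 4.56% for all. Sema5b is counted among the members in each of the 4 samples.

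Next, a line through the 4 times was fitted to each probe set with limma, the coefficient being the fitted log2 change from 1 to 6 hours. No member passed (0 of 40, background 0%), and 3 had an unadjusted p under 0.05 (7.5%, against 6.24% of all tested probe sets). All 3 were positive: Sema6c (1.37, SE 0.47), Plxna1 (1.5, SE 0.59) and Sema6b (0.86, SE 0.35), each with limma adjusted p = 0.74, and each with its lowest value in the 1-hour sample. The negative trends with the smallest p were those of the suffixed Sema4b probe set (-1.49, SE 0.75), 1 Sema7a probe set (-1.08) and Sema3e (-0.53), with unadjusted p = 0.086, 0.15 and 0.16 and limma adjusted p = 0.75, 0.76 and 0.76.

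Intracellular and accessory genes of the same pathways were read from a list of 62, of which 44 had a probe set and 39 were tested. The trend called 0 of them by limma, and 6 of the 39 (15.4%, background 17.9%) had a range of 2-fold or more. In the 1-hour sample 2 (5.13%, background 2.35%) had an adjusted p under 0.05, both lower. They were L1cam, an adhesion molecule that associates with Nrp1, and Cfl1, the actin-severing protein cofilin. L1cam had 22.4, at the floor, and 352, 309 and 357, so its log2 difference of -3.26 (limma adjusted p = 0.0070) is a lower bound on its size. Cfl1 had 5520, 7582, 9192 and 8140 (-0.68, SD 0.10, limma adjusted p = 0.032). The next widest were Cdk5r1, an activator of the kinase that acts below Sema3a, with 66.1, 218, 211 and 130, Srgap2, a GTPase-activating protein of the robo pathway, with 183, 72.9, 71.1 and 138, and Rhoa, a GTPase of growth cone collapse, with 300.0, 546, 771 and 719. Cdk5r1 and Rhoa were lowest and Srgap2 highest at 1 hour, and none of these 3 passed. The median log2 difference of the 39 at 1 hour was 0.03.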

How the data were processed

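Total RNA of 4 control samples was measured on 1-colour arrays. The deposited values are intensities on a linear scale, 1 per probe set. They were on 1 common scale: with 2% trimmed from each end, every column averaged 500.3. Array software, labelling and detection calls were not given in the sources. Of 12488 probe sets 66 were controls. Names came from the array's annotation table (10833 probe sets with 1 symbol, 396 with several, 1193 with none), and all 58 member symbols matched the current ones by gene identifier. The probed part of each transcript was not used.

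The columns were quantile normalized, floored at the 20th percentile and put on the log2 scale, and probe sets with a mean at or above the 40th percentile were tested (7453). Linear models were fitted with lmFit and eBayes (trend on intensity) of limma 3.58.1, under R 4.3.3, with 2 residual degrees of freedom, two-sided p-values and Benjamini-Hochberg adjustment over all tested probe sets. Figures were drawn with matplotlib 3.10.9. Of each role the probe set with the highest mean and up to 3 with the widest range were named, with those furthest from the other 3 in each sample, those with the smallest trend p and probe sets of a gene that disagree; other members are named for completeness. Other genes entered lists by their probe set with the highest mean. The members, lists and tests were chosen with earlier results of these data known. Alternatives covered scaling, floor, filter, suffixed probe sets and leaving out each sample.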

Additional observations from a re-analysis of the deposited data

Results flagged for a closer look

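In 2 of the 40 tested members (5%, against 6.75% of all 7453 tested probe sets) 1 sample lay far from the other 3, by a gap between it and its nearest neighbour above Dixon's critical share of the whole range, the size that chance alone exceeds in about 1 of 20 groups. One was the suffixed Sema4b probe set, where the 1-hour signal of 697 stood above 147 to 192 (gap 0.849 of the range), while its other 2 probe sets showed no such gap. The other was a Sema7a probe set, where the 6-hour signal of 58.4 stood below 133 to 141 (0.935), while the second Sema7a probe set was highest at 6 hours.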

How the results depend on the processing

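With 4 arrays, small counts move easily. Leaving out each sample in turn, the trend called 0 members by limma each time, as with all 4. The number called in the 1-hour sample was 1 to 2 and in the 2-, 4- and 6-hour samples 0. Members with a 2-fold range numbered 3 to 8 against 9, with 3 when the 1-hour sample and 5 when the 4-hour sample was left out. Those 2-fold from the others numbered 5 each time at 1 hour, 0 to 1 at 2 hours, 1 to 2 at 4 hours and 0 to 3 at 6 hours, against 6, 1, 2 and 3 with all samples. Without the 1-hour sample they were 0 at 2 hours and 0 at 6 hours. Without the 6-hour sample the 4-hour number was 1. With equal medians the 4-hour number was 1, and with no floor, log2(value + 16), 0. With the floor at the 40th percentile 0 members were called at 1 hour by limma, against 2, while the share of all tested probe sets called went from 2.35% to 0.0403%, and 0, 1 and 1 were 2-fold off at 2, 4 and 6 hours (1.15%, 1.22% and 1.33% of all). With no filter (58 members) 18 had a 2-fold range (27.6% of all probe sets did). In the order of hours 10, 2, 5 and 9 were 2-fold off (9.2%, 5.92%, 6.59% and 6.18% of all) and 1, 1, 2 and 4 were called (2.94%, 1.75%, 1.83% and 1.7% of all). All 8 of those calls fell on probe sets at the floor in 2 or 3 of the other samples, where the spread is set by the floor. With the filter at the 60th percentile (29 members) 3 had a 2-fold range (8.61% of all), 2, 0, 1 and 0 were 2-fold off (3.46%, 0.503%, 0.644% and 0.644% of all) and 1 was called at 1 hour (3.58% of all). Without suffixed probe sets 1, Plxna1, was called at 1 hour. The causes were not tested. The named differences of 2-fold or more kept their sign wherever the probe set was tested, which was not in every setting, but not their size. With the floor at the 40th percentile, which lies above their low signals, those of Sema5b were 0.85, -0.66, 0.47 and -0.66 in the order of hours and that of Sema7a at 6 hours was -0.27. Without the 6-hour sample those of Sema5b were -1.94 at 2 hours and 0.755 at 4 hours. Scaling moved the median log2 difference of all tested probe sets by less than 0.1 in every sample.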
